A study of Homo sapiens with 24 samples.

Results

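The mRNAs of the ribosomal stalk were 4 of the 61853 gene rows in the table: RPLP0, RPLP1, RPLP2 and RPL12. They were picked by symbol as the stalk proteins and the protein at the stalk's base. Earlier results of the same libraries were known when they were picked: RPLP1 was among the mRNAs that differed most between gradient fractions, and RPLP0 stood out in 1 library. Their differences between the upper-numbered and lower-numbered fractions, and between genotypes within a fraction, are therefore given as a description without a test. Each symbol matched 1 row, and all 4 rows passed the filter on low counts.

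The stalk is a flexible arm of the large ribosomal subunit. RPLP0 encodes the protein that anchors it to ribosomal RNA, RPLP1 and RPLP2 encode small acidic proteins that bind RPLP0 as heterodimers, and RPL12 encodes the protein beside RPLP0 at the base. The tails of the acidic proteins recruit the GTPases of translation, among them the elongation factors EEF1A1 and EEF2. Ribosomal protein mRNAs start with a run of pyrimidines at the cap, the TOP motif, through which mTOR signalling and LARP1 control their translation, so that TOP mRNAs as a class move between polysomes and lighter particles.

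The cells were 293T, a human embryonic kidney line. All carried a short hairpin RNA against DIS3, DIS3-sh2, and re-expressed DIS3 either as the D146N mutant (D146N) or as the wild-type protein (WT). DIS3 is a catalytic subunit of the RNA exosome, and D146N replaces an aspartate of its endonuclease domain. Cytoplasmic RNA was separated on a sucrose density gradient, and fractions 3, 4, 7 and 8 were depleted of ribosomal RNA and sequenced, with 3 libraries in each of the 8 groups (D146N and WT, 4 fractions each), described as biological replicate sets. The sources used here do not say from which end fractions were numbered, which particles they held, how much RNA each yielded, what promoter drove the rescue constructs or whether the cells were clones, and no group lacked the hairpin or the rescue.

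Libraries held 21.2 to 32.99 M counts. DIS3 itself read 4.54 to 114.5 CPM (a count scaled to the library total) over the 24 libraries, a count that cannot tell the endogenous, D146N and WT forms apart. Of 8 genes chosen as marks of 293T, 3 reached 10 CPM in some library. They were VIM at 15.9 to 226.9 CPM, EYA1 at 13.3 to 35.0 CPM and INA at 0.478 to 14.1 CPM. PAX2, NEFL, NEFM and GATA3 peaked at 2.31, 2.17, 3.11 and 4.94 CPM, and LHX1 stayed under 1 CPM throughout. The name 293T is that of the sample titles and was not tested. Liver genes were also read: of 7, 4 reached 10 CPM in some library, with ALB at 4.57 to 142.4 CPM and AFP at 3.97 to 116.4 CPM. The list summed to 9.88 to 280.5 CPM in D146N and 15.4 to 270.1 CPM in WT. Their part in the results was not tested. Fibroblast genes summed to at most 15.9 CPM, and immune, erythroid and epithelial genes to at most 2.93 CPM. WT fraction 8 replicate 3 stood apart from its group. The chi-square of counts per degree of freedom was 143.5 and 147.0 in its comparisons with the other 2 libraries of its group, against 1.87 to 6.04 in the 22 other pairs of replicates, so it is shown apart and results that rest on it are given with and without it. Fewer cells, fewer particles and less RNA per particle cannot be told apart in such libraries.

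The starts of the 4 genes are shown because the TOP motif is what these mRNAs share with the other ribosomal protein mRNAs. The stretches are from RefSeq on GRCh38.p14 and run from 60 bases before to 20 bases after the annotated start. Capitals mark the longest pyrimidine run that begins within 10 bases of the start, on either side. They lie at chr12:120201092-120201171 on the minus strand (RPLP0), chr15:69452758-69452837 on the plus strand (RPLP1), chr11:809907-809986 on the plus strand (RPLP2) and chr9:127451387-127451466 on the minus strand (RPL12).
RPLP0: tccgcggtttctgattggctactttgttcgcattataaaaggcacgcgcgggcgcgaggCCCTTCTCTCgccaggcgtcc
RPLP1: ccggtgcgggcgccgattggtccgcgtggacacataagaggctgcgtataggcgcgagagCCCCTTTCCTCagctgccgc
RPLP2: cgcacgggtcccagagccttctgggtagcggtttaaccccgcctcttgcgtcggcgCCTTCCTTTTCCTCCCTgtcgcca
RPL12: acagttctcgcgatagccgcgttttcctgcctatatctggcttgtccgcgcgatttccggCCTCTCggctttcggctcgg

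The pyrimidine run was 10 bases long in RPLP0, 11 in RPLP1, 17 in RPLP2 and 6 in RPL12. A run of at least 6 beginning that near the start was found in 24.7% of 34796 promoters and one of at least 10 in 4.86%. Of 72 other ribosomal protein promoters, 57 (79.2%) had a run of at least 6, with a median length of 11. Searched on both strands over the whole promoter entries of the table, the letters TATAAA (in 11.6% of all promoters) was found in RPLP0 alone of the 4, and CCAAT (34.6%) in RPLP0, RPLP1 and RPLP2. ATGGCG (10.7%) was found in RPLP0 and RPL12, and TTCCGG (17.2%) in RPLP2 and RPL12. A match of letters is no evidence of a bound site, and these shares show that each pattern is common.

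RPLP1 (ENSG00000137818.12, chr15:69452818-69456205), a tip protein of the stalk, had opposite fraction profiles in the 2 genotypes. In D146N it read 6344, 6632 and 6453 CPM in fraction 3 and 6343, 6007 and 6354 CPM in fraction 4, then 1113, 1052 and 1082 CPM in fraction 7 and 1082, 1057 and 1075 CPM in fraction 8. In WT it read 1312, 1304 and 1366 CPM in fraction 3 and 1335, 1331 and 1339 CPM in fraction 4, then 9114, 9838 and 9986 CPM in fraction 7 and 10065, 9774 and, in the library that stood apart, 7603 CPM in fraction 8. The 8 groups thus formed 4 levels that did not overlap: WT fractions 7 and 8 at the top, then D146N fractions 3 and 4, WT fractions 3 and 4, and D146N fractions 7 and 8. Within each level the 2 fractions overlapped, except that the library that stood apart lay below the rest of its level. D146N fractions 3 and 4 thus resembled WT fractions 7 and 8. The sources used here do not give how each gradient was numbered, and a difference between the genotypes cannot be told apart from an exchange of fraction labels or of the numbering. The mean CPM of fractions 7 and 8 was 0.169 times that of fractions 3 and 4 in D146N and 7.06 times in WT (7.35 without the library that stood apart).

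RPLP2 (ENSG00000177600.9, chr11:809967-812876), the partner of RPLP1 in the dimer, had the same 4 levels over a narrower range. In D146N it read 1940, 1996 and 1986 CPM in fraction 3, 1943, 1894 and 1898 CPM in fraction 4, 530.1, 529.0 and 533.2 CPM in fraction 7, and 529.8, 491.5 and 500.8 CPM in fraction 8. In WT it read 615.1, 608.9 and 641.1 CPM in fraction 3, 635.8, 614.8 and 603.4 CPM in fraction 4, 2406, 2587 and 2581 CPM in fraction 7, and 2573, 2553 and 2247 CPM in fraction 8. No library of one level reached into another. The mean of fractions 7 and 8 was 0.267 times that of fractions 3 and 4 in D146N and 4.02 times in WT.

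RPL12 (ENSG00000197958.13, chr9:127447674-127451406), at the base, had the profile of the tip protein RPLP1. In D146N it read 5040, 5068 and 5080 CPM in fraction 3, 4912, 4590 and 4918 CPM in fraction 4, 846.1, 831.5 and 853.1 CPM in fraction 7, and 831.7, 785.9 and 832.8 CPM in fraction 8. In WT it read 866.2, 894.7 and 933.0 CPM in fraction 3, 920.0, 940.6 and 907.6 CPM in fraction 4, 5405, 5760 and 5705 CPM in fraction 7, and 5750, 5633 and 5681 CPM in fraction 8. The same 4 levels did not overlap, and WT fraction 8 replicate 3, the last value given, lay between the other 2 libraries of its group. Fractions 7 and 8 stood at 0.168 times fractions 3 and 4 in D146N and at 6.21 times in WT.

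RPLP0 (ENSG00000089157.16, chr12:120196699-120201111), the anchor, did not share this profile. In D146N it read 509.4, 518.0 and 534.9 CPM in fraction 3, 515.7, 498.6 and 521.9 CPM in fraction 4, 731.4, 720.6 and 711.3 CPM in fraction 7, and 706.7, 700.5 and 703.1 CPM in fraction 8. In WT it read 694.7, 720.2 and 753.0 CPM in fraction 3, 710.2, 728.1 and 710.7 CPM in fraction 4, 537.9, 560.3 and 558.9 CPM in fraction 7, and 548.8, 544.3 and 3942 CPM in fraction 8. Leaving the last library aside, D146N fractions 7 and 8 and WT fractions 3 and 4 overlapped and were the high groups, whereas WT fractions 7 and 8 and, just below them without overlap, D146N fractions 3 and 4 were the low ones. In CPM it was thus higher, within each genotype, in the fractions where the other 3 were lower, and the spread was small: fractions 7 and 8 stood at 1.38 times fractions 3 and 4 in D146N and at 0.764 times in WT, or 1.55 times in WT with the library that stood apart.

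**Figure D1:**
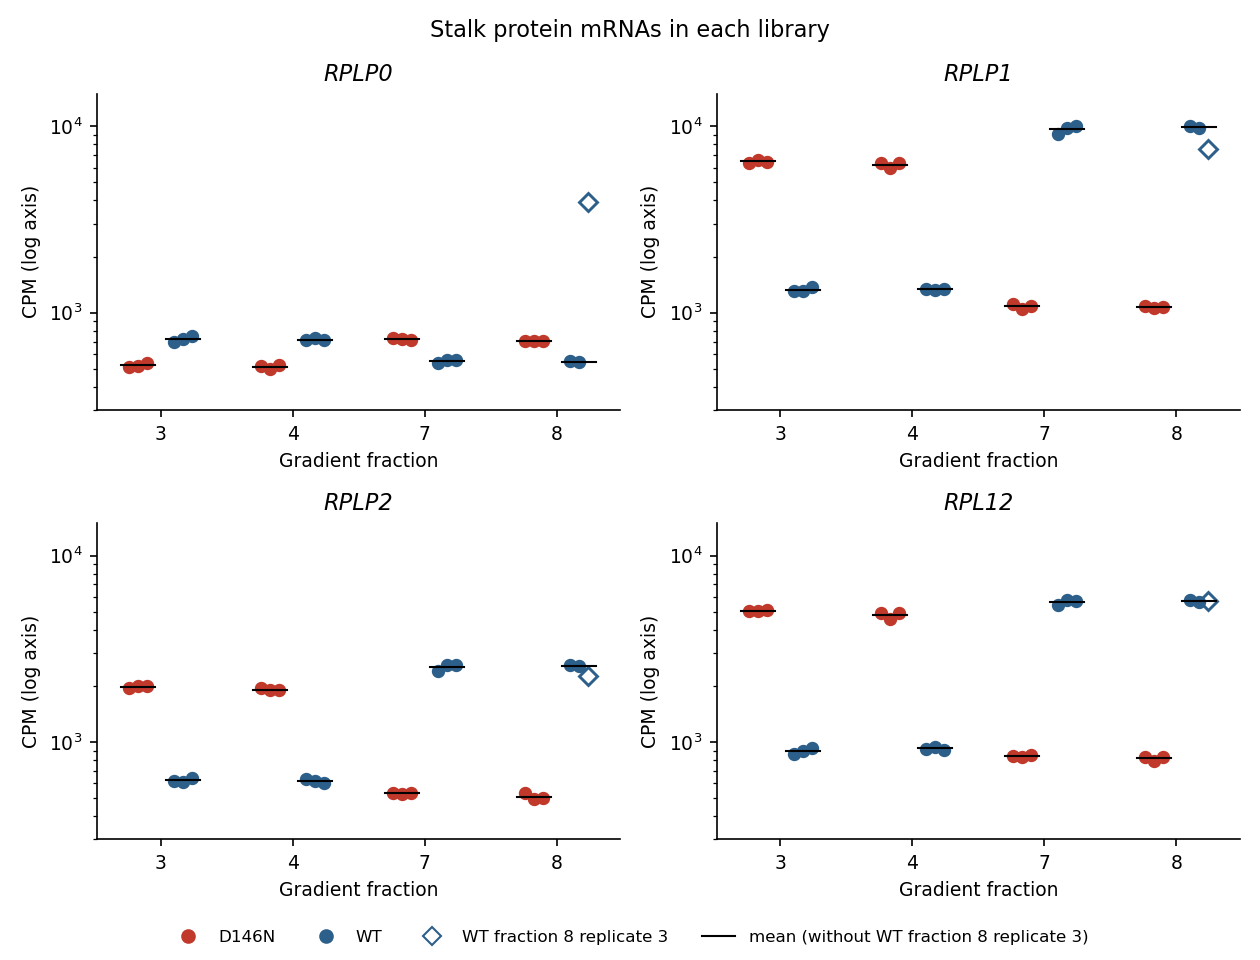
CPM on library totals (log axis) of the 4 stalk mRNAs in each of the 24 libraries by gradient fraction, D146N in red and WT in blue. Bars are means of 3 libraries (2 for WT fraction 8). RPLP1, RPLP2 and RPL12 are high in D146N fractions 3 and 4 and in WT fractions 7 and 8, whereas RPLP0 within each genotype is high in the other pair of fractions in CPM (not after TMM scaling), over a narrow range except for WT fraction 8 replicate 3 (open diamond) at 3942 CPM.

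The direction for RPLP0 depended on the scale. TMM scaling, which sets libraries so that the typical gene is level, used mean factors of 0.366 in D146N fractions 3 and 4, 2.81 and 2.76 in D146N fractions 7 and 8, 2.51 in WT fractions 3 and 4, and 0.365 and 0.426 in WT fractions 7 and 8. The 10 rows with the most counts took 76.4 to 77.6% of the library in D146N fractions 3 and 4, 48.6 to 50.2% in D146N fractions 7 and 8, 51.4 to 52.8% in WT fractions 3 and 4, and 65.6 to 73.1% in WT fractions 7 and 8. With fractions 7 and 8 set against 3 and 4, the median log2 fold change of all 18907 genes in D146N was 0.10 after TMM and 3.00 on library totals, and in WT it was -0.18 after TMM and -2.83 on library totals. A fold change after TMM is thus relative to a typical gene that itself lost or gained much of its share of the library.

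Relative to the typical gene all 4 mRNAs had the same sign, which for RPLP0 flips on library totals in D146N and, without the library that stood apart, in WT. The log2 fold change after TMM of fractions 7 and 8 against 3 and 4 in D146N was -5.49 for RPLP1 (SE 0.12), -4.83 for RPLP2 (SE 0.10), -5.50 for RPL12 (SE 0.09) and -2.46 for RPLP0 (SE 0.30), the last of which was 0.46 on library totals. In WT it was 5.52 for RPLP1 (SE 0.12), 4.71 for RPLP2 (SE 0.10), 5.33 for RPL12 (SE 0.09) and 3.00 for RPLP0 (SE 0.31), the last of which was 2.36 (SE 0.02) without the library that stood apart and 0.42 on library totals with it. On library totals without that library it was -0.39 (SE 0.03). These contrasts chose the members. At an adjusted p under 0.05 (edgeR's quasi-likelihood test, Benjamini-Hochberg over all genes) they called 60.2% of all genes in D146N and 73.9% in WT. The calls of the stalk mRNAs depend on the scale, 4 after TMM and 3 on library totals in each genotype with all libraries in, and nothing is read from them.

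The other cytosolic ribosomal protein mRNAs moved the same way. Of 43 others of the large subunit, 41 were lower and 2 higher in fractions 7 and 8 of D146N, with a median of -3.87 on the log2 scale, and all 32 of the small subunit were lower, with a median of -4.05. In WT, 40 of the 43 were higher, 2 lower and 1 was not called (median 3.90), and all 32 of the small subunit were higher (median 4.02). Over all genes, 30.3% were called lower and 29.9% higher in D146N, and 34.6% higher and 39.3% lower in WT. The 2 large subunit mRNAs that went the other way were RPL3 and RPL4 in both genotypes, and the uncalled one in WT was RPL5. On library totals the large subunit had 36 lower, 4 higher and 3 not called in D146N, where 4.08% of all genes were called lower and 88.9% higher. In WT on that scale it had 39 higher, 3 lower and 1 not called, where 7.66% of all genes were called higher and 83.6% lower. Ranked from the highest among the 79 ribosomal protein mRNAs by the WT value, RPLP1 was in place 1, RPL12 in place 2, RPLP2 in place 13 and RPLP0 in place 74. By the D146N value RPL12 was in place 79, RPLP1 in place 78, RPLP2 in place 74 and RPLP0 in place 6. RPLP1 and RPL12 were therefore the extremes of the ribosomal protein mRNAs in both genotypes, and RPLP0 lay near the opposite end.

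On CPM ratios, in which the library total is the only scale, 70 of the 79 were lower and 9 higher in fractions 7 and 8 of D146N, with a median log2 ratio of -1.08. In WT, without the library that stood apart, 73 were higher and 6 lower, with a median of 1.29. RPLP0 was among the exceptions both times, with a log2 ratio of 0.46 in D146N and -0.39 in WT. Among the other exceptions were 5 mRNAs of both subunits, named here after their values were seen. RPL4 had log2 ratios of 3.62 in D146N and -4.28 in WT, RPL3 3.45 and -3.33, and RPL5 2.38 and -3.18. RPS6, at 0.53 and -0.41, and RPL7A, at 0.55 and -0.30, were close to RPLP0.

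**Figure D2:**
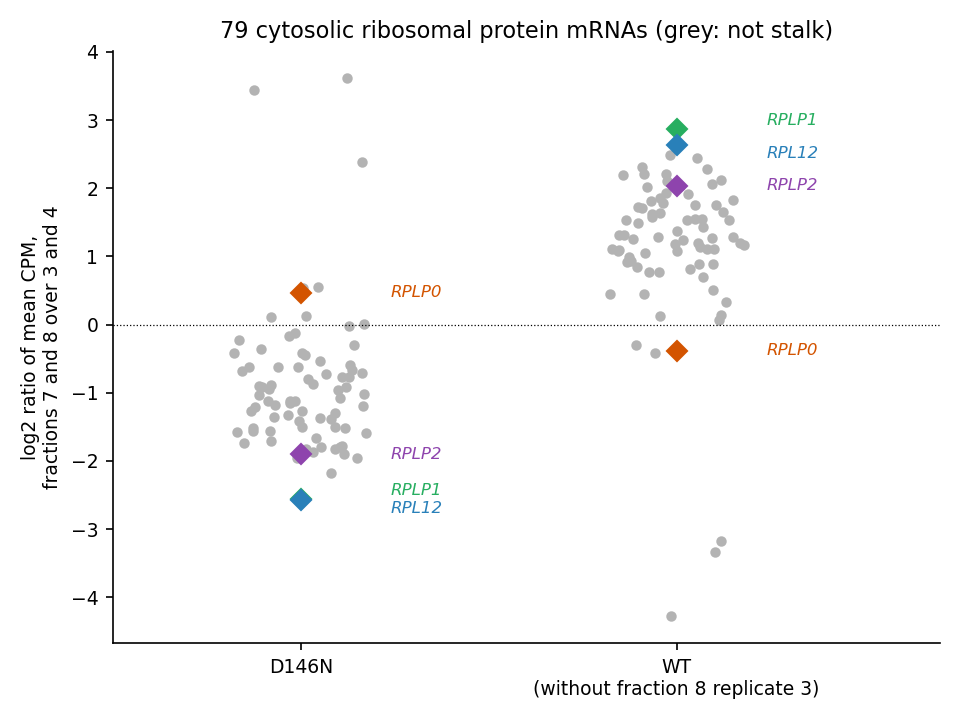
Log2 ratio of mean CPM in fractions 7 and 8 over fractions 3 and 4 for 79 cytosolic ribosomal protein mRNAs, in D146N (left) and in WT without fraction 8 replicate 3 (right), 1 point per mRNA with sideways scatter for display. RPLP1 and RPL12 mark the edge of the cloud in both genotypes, at -2.56 and -2.57 in D146N and 2.87 and 2.63 in WT, and RPLP0 lies across the zero line from them on this scale (after TMM scaling it has their sign).

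Set against WT within a fraction, D146N differed in each fraction with a sign set by the fraction. In fraction 3 the log2 fold change after TMM was 5.07 for RPLP1 (SE 0.16), 4.45 for RPLP2 (SE 0.14), 5.27 for RPL12 (SE 0.13) and 2.31 for RPLP0 (SE 0.42), and in fraction 4 it was 5.005, 4.41, 5.16 and 2.297. In fraction 7 it was -6.10 for RPLP1 (SE 0.17), -5.20 for RPLP2 (SE 0.14), -5.68 for RPL12 (SE 0.13) and -2.56 for RPLP0 (SE 0.43). In fraction 8 it was -5.85, -5.02, -5.53 and -3.76, and the last became -2.50 (SE 0.03) without the library that stood apart. On library totals RPLP0 had the other sign in fractions 3, 4 and 7, at -0.47, -0.48 and 0.38, and, without that library, in fraction 8, at 0.36 (SE 0.04). RPLP1, RPLP2 and RPL12 kept their signs on library totals. On library totals RPLP0 was not called in fractions 3, 4 and 7, where 16745, 16650 and 16821 of 18907 genes were called. After TMM all 4 were called in each fraction, and nothing is read from these calls. Of all genes 49.7% were called in fraction 3 (25.8% higher, 23.9% lower in D146N), 48.5% in fraction 4 (25.7% higher, 22.8% lower), 63.5% in fraction 7 (32.4% higher, 31.1% lower) and 65.1% in fraction 8 (32.5% higher, 32.6% lower). These comparisons reuse the libraries of the fraction contrasts and add no separate evidence.

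The share of ribosomal protein counts that fell to the stalk needs no scaling factor. In D146N the 4 mRNAs took 14.4% ± 0.0895 of the cytosolic ribosomal protein counts in fractions 3 and 4 and 7.38% ± 0.0408 in fractions 7 and 8 (SD, 6 libraries each). In WT they took 8.08% ± 0.0785 in fractions 3 and 4 and 14.7% ± 0.331 in fractions 7 and 8. The stalk mRNAs thus took a larger part of the ribosomal protein counts in the same fractions in which those counts took a larger part of the library: 9.56% ± 0.265 in fractions 3 and 4 of D146N, 4.26% ± 0.0854 in its fractions 7 and 8, 4.43% ± 0.0904 in fractions 3 and 4 of WT and 12.7% ± 0.673 in its fractions 7 and 8. Within the stalk counts the part of RPLP0 was 3.76% ± 0.0777 in fractions 3 and 4 of D146N and 22.7% ± 0.292 in its fractions 7 and 8. In WT it was 20.1% ± 0.275 in fractions 3 and 4 and 2.90% to 20.2% in fractions 7 and 8, where the highest value belongs to the library that stood apart.

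**Figure D3:**
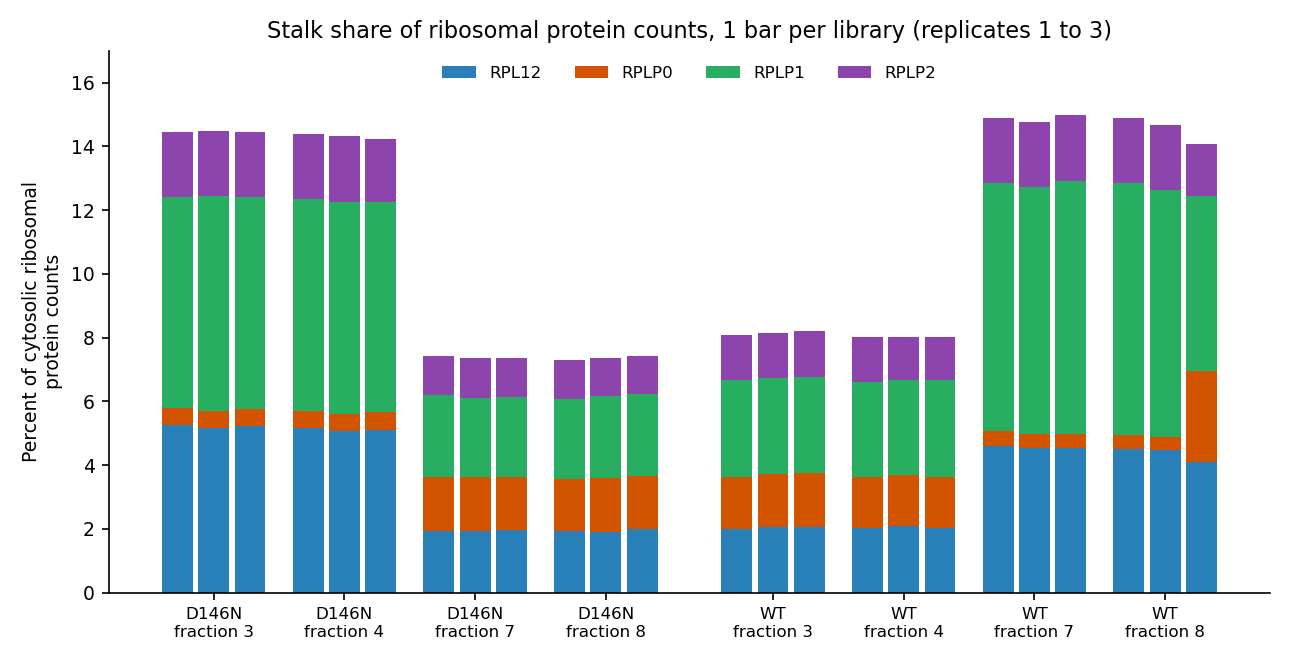
Percent of cytosolic ribosomal protein counts taken by each stalk mRNA, stacked, with 1 bar per library and replicates 1 to 3 side by side, D146N on the left and WT on the right. Counts grow with transcript length, so segments of different mRNAs are not levels to be compared. Bars reach 14.2 to 14.5% in D146N fractions 3 and 4 and 14.1 to 15.0% in WT fractions 7 and 8, against 7.31 to 7.43% and 8.01 to 8.20% in the other fractions of D146N and WT.

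WT fraction 8 replicate 3 held 7.21 times as much RPLP0 as the mean of replicates 1 and 2 of its group, in CPM. It did not hold more of the rest of the stalk: RPL12 read 5681 CPM against 5750 and 5633, RPLP2 was at 0.877 times and RPLP1 at 0.766 times the mean of the other 2. Of 1611 rows with at least 10 CPM, 330 were at least 2-fold and 111 (6.89%) at least 4-fold higher in that library, the median ratio was 1.20, and RPLP0 was in place 35 by ratio and in place 5 by CPM gained. Other large subunit mRNAs had a median ratio of 0.899 and a range of 0.644 to 4.96, and small subunit mRNAs one of 0.924 and a range of 0.713 to 5.95. Next to RPLP0 among them were RPSA at 5.95, RPL5 at 4.96, RPL7A at 3.41 and RPS6 at 3.03, named after their values were seen. RPL7A, RPS6 and RPL5 were also among the mRNAs beside RPLP0 in the fraction ratios. Mitochondrially encoded RNA took 1.89% of this library, against 0.829% and 0.821% of the other 2, and its part in the RPLP0 value was not tested.

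**Figure D4:**
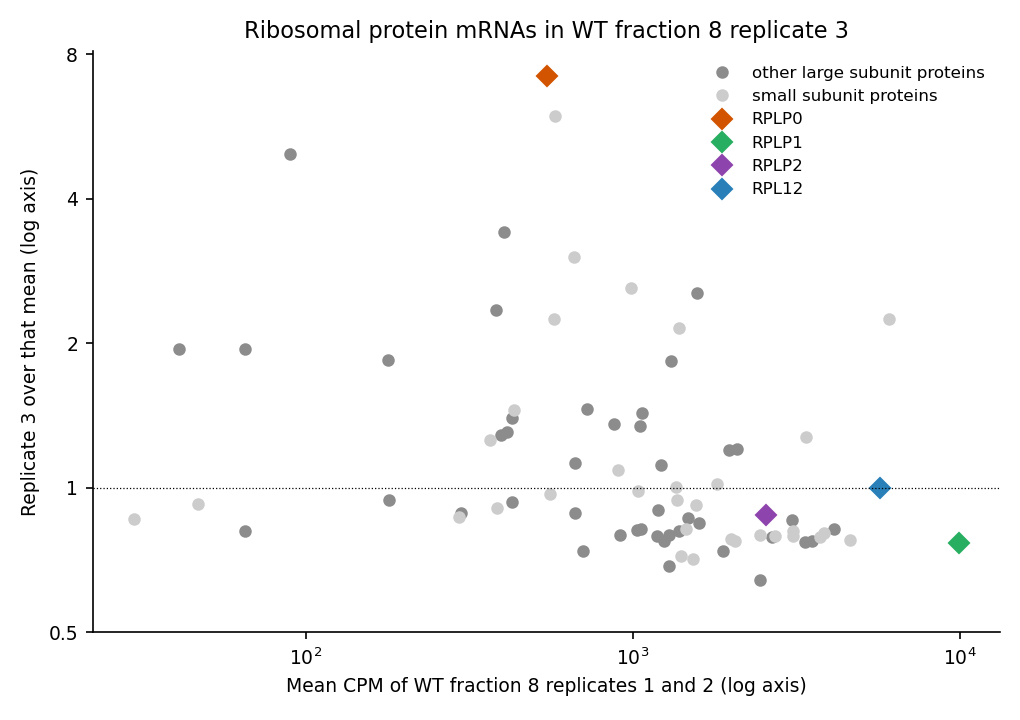
Ratio of WT fraction 8 replicate 3 to the mean of replicates 1 and 2 (log axis) against that mean in CPM (log axis) for the ribosomal protein mRNAs, with large subunit mRNAs in dark grey, small subunit mRNAs in light grey and the stalk as coloured diamonds. RPLP0 is the highest at 7.21, while RPL12 lies at 0.998, RPLP2 at 0.877 and RPLP1 at 0.766.

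Neighbouring fractions were compared with a test, since the members were not chosen on them. Fraction 4 against fraction 3 in D146N gave log2 fold changes of -0.02 for RPLP0 (SE 0.40), -0.05 for RPLP1 (SE 0.14), -0.04 for RPLP2 (SE 0.12) and -0.07 for RPL12 (SE 0.11), each with an adjusted p of 1 (edgeR). In WT the same step gave -0.01, 0.01, -0.01 and 0.04, and fraction 8 against 7 in D146N gave -0.01, 0.01, -0.04 and -0.02, all with an adjusted p of 1. The difference of the 4-against-3 step between genotypes, D146N minus WT, was -0.11 for RPL12 (SE 0.16) and closer to 0 for the other 3, again with an adjusted p of 1. No gene of 18907 (0%) was called in any of these 4 comparisons by edgeR, and none of 37178 by DESeq2. In edgeR 765, 830, 653 and 850 genes had an unadjusted p under 0.05. Each is a smaller share of the genes than the 0.05 that would be seen with no difference, in a fit that includes WT fraction 8 replicate 3. Without that library these were 960, 1278, 1015 and 1235 of 19605 genes, all but the first above that share. No gene was called there either. With WT fraction 8 replicate 3 left out of the fit the SEs of the 4 mRNAs dropped to between 0.02 and 0.04. The RPL12 step in D146N was then -0.07 (SE 0.02, unadjusted p 0.00148, adjusted p 0.736), and no stalk mRNA passed. No step of a stalk mRNA between these neighbouring fractions thus passed the adjustment over all genes.

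Fraction 8 against 7 in WT is described only, since it holds the library that stood apart. The log2 fold change was 1.19 for RPLP0 (SE 0.41), -0.23 for RPLP1 (SE 0.14), -0.21 for RPLP2 (SE 0.12) and -0.17 for RPL12 (SE 0.11). Without that library it was -0.05 (SE 0.03), 0.01 (SE 0.02), -0.01 (SE 0.03) and -0.02 (SE 0.02).

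Over the sum of the 4 fractions the stalk mRNAs were lower in D146N than in WT, in 3 of the 4 past the threshold. The sums are made of the same libraries whose fraction contrasts chose the members, so their p-values are not independent of that choice. Their libraries were joined by replicate number alone, and whether the spread between sets was biological or technical was not tested. After TMM, RPLP1 read 3844, 3765 and 3787 CPM in the D146N sums, against 6370, 6570 and 5488 CPM in the WT sums, and its log2 fold change was -0.69 (SE 0.06, with an adjusted p of 2.19e-07 in edgeR). RPLP2 read 1262, 1240 and 1233 CPM in D146N, against 1781, 1841 and 1620 CPM in WT, and its log2 fold change was -0.49 (SE 0.05, with an adjusted p of 5.78e-07 in edgeR). RPL12 read 3003, 2878 and 2957 CPM in D146N, against 3760, 3884 and 3590 CPM in WT, and its log2 fold change was -0.35 (SE 0.04, with an adjusted p of 1.18e-05 in edgeR). The protein pair at the tip and the base protein thus shared a direction, and no D146N sum reached the lowest WT sum for any of these 3. RPLP0 read 589.6, 581.8 and 587.8 CPM in D146N, against 645.0, 659.3 and 1619 CPM in WT, where the last value comes from the set with the library that stood apart. Its log2 fold change was -0.73 (SE 0.44, adjusted p 0.320, edgeR), and without that set it was -0.17 (SE 0.02, adjusted p 1.44e-06). The call without that set depended on the scale. On library totals RPLP0 read 606.6, 602.1 and 611.1 CPM in D146N, against 611.5 and 624.6 CPM in the other 2 WT sets, and the fitted difference was -0.03 on the log2 scale (SE 0.02, adjusted p 0.376, edgeR).

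**Figure D5:**
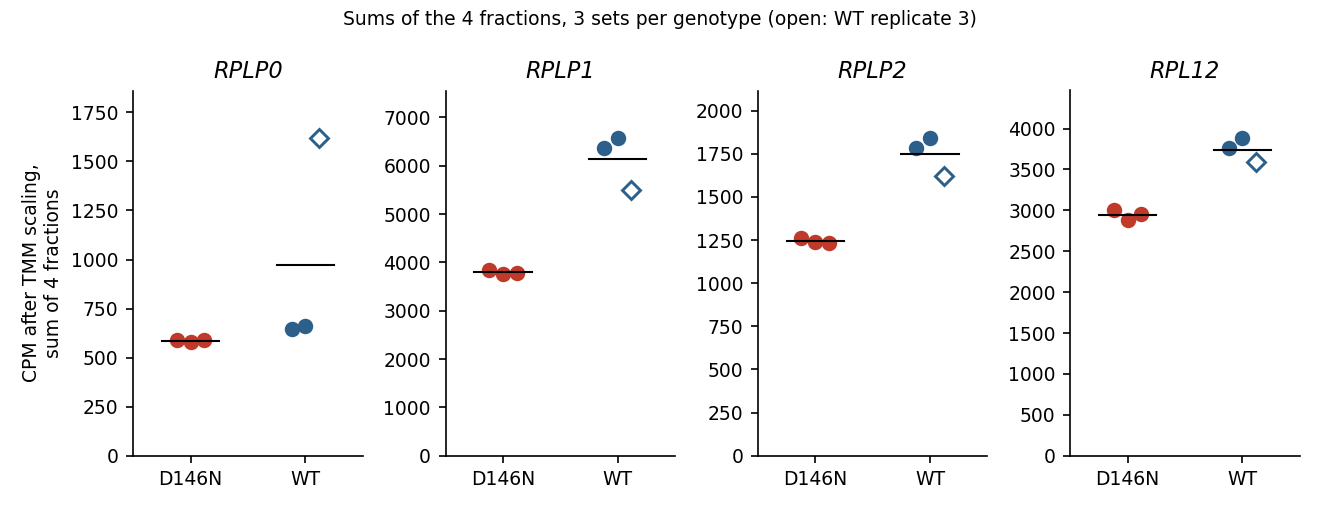
CPM after TMM scaling of the 4 stalk mRNAs in the sums of the 4 fractions, 3 sets for D146N (left) and 3 for WT (right), with means as bars and WT replicate 3 as an open diamond. On this scale D146N sums lie below all WT sums for each mRNA. For RPLP0 they lie between 581.8 and 589.6 CPM, against 645.0, 659.3 and 1619 CPM in WT.

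Across all genes 5636 of 20562 (27.4%) were called in the sums, 14.9% higher and 12.5% lower in D146N, and without WT replicate 3 27.3% were called, 14% higher and 13.3% lower. The stalk mRNAs called lower were then 4 after TMM and 3 on library totals. The other ribosomal protein mRNAs were lower too, 35 of 43 in the large subunit with RPL3 higher (median -0.38) and 26 of 32 in the small subunit with none higher (median -0.45). Without WT replicate 3 these were 40 with 2 higher, and 32. The sums are no measure of the cell's content, since the other fractions of the gradient are not in them and each fraction entered by its sequencing depth, which was greatest in WT fractions 7 and 8. An alternative that was not planned scaled every library to the same total before summing. The log2 fold changes were then -0.58 for RPLP1 (SE 0.04), -0.39 for RPLP2 (SE 0.04) and -0.24 for RPL12 (SE 0.03). All were still called, with adjusted p of 4.50e-09, 8.60e-08 and 1.73e-05 (edgeR).

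The stalk's share of the summed ribosomal protein counts was 12.5%, 12.5% and 12.4% in the D146N sets, against 13.4%, 13.4% and 13.2% in the WT sets. The groups did not overlap, with a log2 ratio of -0.10, and the exact two-sided permutation p was 0.1, the smallest that 3 against 3 allows, so that this share could not reach 0.05. The members differed in direction. RPLP1 took 5.52% ± 0.0246 of ribosomal protein counts in D146N and 6.49% ± 0.539 in WT (SD, n = 3 each), whereas RPL12 took 4.28% ± 0.0357 in D146N and 3.96% ± 0.103 in WT. RPLP2 took 1.81%, 1.83% and 1.79% in D146N, against 1.91%, 1.90% and, with the library that stood apart, 1.73% in WT. RPLP0 took 0.845%, 0.857% and 0.853% in D146N, against 0.690%, 0.681% and, with the library that stood apart, 1.73% in WT. No test was made of single members' shares.

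The mRNAs of elongation factors and of factors that the stalk contacts did not share its profile as a group. Of the elongation factors, EEF1A1 and EEF2 are the GTPases named above as recruited by the stalk. After TMM, 29.9% of all genes were called higher and 30.3% lower in D146N, and 34.6% higher and 39.3% lower in WT. Of 6 elongation factor mRNAs, 4 were higher and 2 lower in fractions 7 and 8 of D146N, and 4 lower and 2 higher in those of WT. On library totals 5 were higher and 1 not called in D146N, and 5 were lower and 1 higher in WT, as were most genes (88.9% higher in D146N, 83.6% lower in WT). EEF1A1, which brings aminoacyl-tRNA, stood at 0.65 in D146N (SE 0.06) and -1.67 in WT (SE 0.06) as log2 fold change, and EEF2, which moves the ribosome along, at 1.06 in D146N and -1.55 in WT. EEF1G, a subunit of the exchange factor of EEF1A1, stood at 1.01 in D146N and -1.53 in WT. The exceptions were 2 other subunits of that exchange factor. EEF1B2, a catalytic subunit, stood at -3.01 in D146N and 3.01 in WT (SE 0.06 each). EEF1D, named after its values were seen, stood at -0.78 in D146N and 1.39 in WT. EEF1A1, EEF2, EEF1G and EEF1B2 each had an adjusted p no higher than 1.47e-06 (edgeR).

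The stalk contacts proteins in termination, recycling, rescue and Gcn2 signalling, and 8 of their mRNAs were read. In fractions 7 and 8 of D146N 6 were higher and 2 not called, with a median of 0.36. In WT 6 were lower and 2 not called, with a median of -0.45. Of all genes after TMM, 29.9% were called higher and 30.3% lower in D146N, and 34.6% higher and 39.3% lower in WT. The release factors GSPT1, at 0.35 in D146N and -0.86 in WT, and ETF1, at 0.38 and -0.41, were called both times, while GCN1, which senses stalled ribosomes for the kinase EIF2AK4, stood at -0.06 in D146N and 0.00 in WT, with adjusted p of 0.392 and 0.962 (edgeR). Of 5 assembly factors of the stalk and of the large subunit, 1 was lower and 4 not called in D146N, and 3 were higher, 1 lower and 1 not called in WT. Without the library that stood apart these were 1 higher, 2 lower and 2 not called in D146N, and 4 higher and 1 lower in WT. The one lower in D146N was MRTO4, which holds the place of RPLP0 on the nascent subunit, at -0.25 (SE 0.10, adjusted p 0.0276). In WT it was higher at 0.31 (SE 0.10, adjusted p 0.00413), as were EIF6, which keeps the subunits apart during maturation, at 0.997 (0.57 without the library that stood apart) and DUSP12 at 0.63 (0.39 without it), while EFL1, a GTPase that releases EIF6, was lower at -0.74. On library totals all 5 assembly factors and all 8 contact factors were higher in D146N and lower in WT, the side on which 88.9% of all genes were called in D146N and 83.6% in WT.

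In the sums, 3 of the 6 elongation factor mRNAs were higher in D146N and none lower. Of all genes, 14.9% were called higher there and 12.5% lower. EEF2 stood at 0.36 on the log2 scale (SE 0.04, adjusted p 1.55e-06 in edgeR) and EEF1G at 0.16 (SE 0.03, adjusted p 0.00192). EEF1A1, at -0.08, and EEF1B2, at -0.11, did not pass, with adjusted p of 0.123 and 0.0682 (edgeR). Without WT replicate 3, 4 were higher and 2 lower (of all genes, 14% were higher and 13.3% lower). The 2 lower ones were EEF1A1, at -0.11 (adjusted p 0.000279), and EEF1B2, at -0.07 (adjusted p 0.0376, edgeR). On library totals without that set both had the other sign, with EEF1A1 at 0.04 (adjusted p 0.208) and EEF1B2 at 0.07 (adjusted p 0.0320, edgeR). Of the contact factors 2 were higher, 2 lower and 4 not called. The higher ones were HBS1L, a ribosome rescue GTPase, at 0.23 (adjusted p 0.000278) and ABCE1, a ribosome recycling factor, at 0.18 (adjusted p 0.00370, edgeR). The lower ones were EIF5B, a GTPase that joins the subunits at initiation, at -0.43 (adjusted p 1.83e-06) and GCN1 at -0.11 (adjusted p 0.0353, edgeR), and GCN1 was not called on library totals (-0.01, adjusted p 0.846). ABCE1 and EIF5B are named after their values were seen.

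The genes with the most similar profiles over the 8 group means were found by the root mean square difference of centred log2 CPM after TMM, among 3838 genes with at least 10 CPM. RPLP1 and RPL12 were near neighbours, at 0.16, and in each other's nearest 5 genes. The other 4 genes nearest to each were RPS12 and rows of ribosomal protein pseudogenes. RPLP2 was nearest to RPS20 (0.04), RPL27 (0.06) and RPS13 (0.06), and lay 0.38 from RPLP1 and 0.33 from RPL12. RPLP0 lay 1.44 from RPLP1, 1.3997 from RPL12 and 1.09 from RPLP2. Its nearest genes were C12orf75, SNHG29 and NAXE with the library that stood apart, and RPS6 (0.04), UBE2D2 and RPL7A (0.07 each) without it.

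Pseudogene rows share sequence with the 4 genes, and how reads that fit several rows were counted is not given in the sources used here. The table had 68 pseudogene rows of the 4 genes, of which 44 held any count. RPLP0P6 stood at 7.73 to 11.2% of RPLP0 and RPL12P16 at 4.96 to 5.70% of RPL12 over the 24 libraries. In WT fraction 8, RPLP0P6 read 45.9, 42.1 and 329.8 CPM, following RPLP0 into the library that stood apart. These rows are therefore no separate evidence of expression, and how many reads of the parents they took cannot be told from the counts.

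Small nucleolar RNAs lie within the span of 2 of the genes, SNORA52 in RPLP2 and SNORA65 in RPL12. SNORA65 was lower in fractions 7 and 8 of D146N, at -3.96 on the log2 scale (SE 0.24, adjusted p 2.16e-16), and higher in WT, with 3.76 (SE 0.23, adjusted p 7.85e-17, edgeR), the direction of its host. SNORA52 stood at -0.54 in D146N (SE 0.57, adjusted p 0.425) and -0.19 in WT (SE 0.58, adjusted p 0.773, edgeR). Both had few counts, at most 2.41 CPM for SNORA65 and 0.826 CPM for SNORA52, and their counts may include reads of the host. On library totals SNORA65 kept its signs, at -1.04 in D146N and 1.10 in WT. SNORA52 turned on that scale in D146N, at 2.304 (adjusted p 0.000179), and was lower in WT, at -2.74 (adjusted p 2.00e-05, edgeR).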

How the data were processed

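RNA of gradient fractions from 293T cells was sequenced after depletion of ribosomal RNA, with 3 libraries in each of 8 groups of genotype and fraction, grouped by sample title. The authors deposited estimated counts per gene, not normalized, in 61853 Ensembl rows; per the submitters' processing notes the tools were Bowtie2 2.3.5, HISAT2 2.1.0, SAMtools and featureCounts 1.5.1 on hg38, without roles or options. Of nonzero values 73.3% were whole within 0.005. The design had assumed whole counts, so values were rounded. Symbols matched 99.9% of rows.

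Contrasts were fitted with edgeR 4.0.16 (R 4.3.3): filterByExpr by group, TMM, robust quasi-likelihood testing with 1 mean for each of the 8 groups, and Benjamini-Hochberg adjustment over 18907 genes, called at an adjusted p under 0.05. SEs are the size of the fold change over the square root of F. The biological coefficient of variation was 13.8% in this fit, which includes WT fraction 8 replicate 3 and so is no measure of the spread in the other groups. Fractions of the same genotype and replicate number were also summed, 3 against 3 (20562 genes tested). Whether those fractions came from 1 gradient is not given in the sources used here.

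The members and the lists were chosen with earlier results of these data known. From each list up to 4 genes with the highest mean CPM were named, plus the 5 genes nearest to each member in profile; others are marked where named. Alternatives were library totals, totals without small and mitochondrial RNAs, no filter, DESeq2 1.42.0, a replicate block, other denominators, leaving out each library and, added after seeing the data, library totals without WT fraction 8 replicate 3 or its set. Sums with every library scaled to the same total were not planned either. On simulated data with 200 changed genes, the WT fraction 4 against 3 step recovered 52.5%, 82.2% and 100% of genes changed 1.5-, 2- and 4-fold (18441 genes). It made 10 false calls. For the sums, also with 200 changed genes, these were 82.8%, 92.9% and 98.5% (20165 genes), with 23 false calls. Library totals of 21.2 to 32.99 M limit counting precision, and reads without molecular identifiers are not independent molecules.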

Additional observations from a re-analysis of the deposited data

Results flagged for a closer look

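For 3 of the stalk mRNAs, every library of D146N moved one way between fractions and every library of WT the opposite way. With fractions 7 and 8 set against 3 and 4, the log2 fold change after TMM was -5.49 in D146N and 5.52 in WT for RPLP1, -4.83 in D146N and 4.71 in WT for RPLP2, and -5.50 in D146N and 5.33 in WT for RPL12. The difference between the genotypes was not tested, since the members were chosen on these contrasts. D146N fractions 3 and 4 resembled WT fractions 7 and 8, with mean TMM factors of 0.366 in D146N fractions 3 and 4 and 0.365 and 0.426 in WT fractions 7 and 8. The numbering of each gradient is not given in the sources used here, so a genotype difference and an exchange of fraction labels cannot be told apart. Groups of 3 are too small for a test of single outlying libraries, so none was made for RPLP0 in WT fraction 8.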

How the results depend on the processing

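Of the members' fold changes under other settings, 227 were the same, 102 moved in size, 14 reversed and 1 passed the threshold anew. The reversals in the contrasts that chose the members were those of RPLP0 on library totals, at 0.46 for fractions 7 and 8 against 3 and 4 in D146N and at -0.47, -0.48 and 0.38 for D146N against WT in fractions 3, 4 and 7. On library totals without WT fraction 8 replicate 3, an alternative added after seeing the data, these 4 reversed again at about the same values (0.46, -0.47, -0.48 and 0.38), and RPLP0 also reversed at -0.39 for fractions 7 and 8 against 3 and 4 in WT and at 0.36 for D146N against WT in fraction 8. The others were within the SE of 0: RPLP1 for fraction 8 against 7 in D146N on library totals (-0.0152 with and without that library), and RPLP0 for the genotype difference of the 4-against-3 step without small and mitochondrial RNAs in the totals (0.0115) and with no filter (0.00179). RPLP0 in the sums passed with fractions scaled to the same total and WT replicate 3 left out (-0.12).

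With no filter 5 genes were called for fraction 4 against 3 in WT, 2 for it in D146N, 4 for fraction 8 against 7 in D146N and 137 for it in WT. On library totals 17572 genes were called for fractions 7 and 8 against 3 and 4 in D146N (main 11387), 16745 for D146N against WT in fraction 3 (9400), 16650 in fraction 4 (9163) and 1 for fraction 8 against 7 in WT. Without WT fraction 8 replicate 3 as well, these were 18099, 17197, 17175 and 1. With totals that leave out small and mitochondrial RNAs the last 3 were 15502, 15357 and 1. DESeq2 called 5 for fraction 8 against 7 in WT.

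Leaving out 1 library at a time gave 0 to 1 genes called for fraction 4 against 3 in WT, 0 to 2 for fraction 8 against 7 in D146N and 0 to 340 for it in WT. For fraction 4 against 3 in WT the log2 fold change then ran from -0.0400 to 0.00406 for RPLP0, from -0.0144 to 0.0149 for RPLP1 and from -0.0335 to 3.57e-05 for RPLP2. For fraction 8 against 7 in D146N it ran from -0.0135 to 0.0114 for RPLP0, from -0.0042 to 0.0421 for RPLP1 and from -0.0328 to 0.0121 for RPL12. The RPLP0 step difference ran from -0.0266 to 0.0180, and RPLP0 in the sums from -0.96 to -0.17. The cause was not tested.

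Replicate numbers did not pair the libraries: 36 correlations of same-numbered libraries within a genotype ran from -0.035 to 0.025. With the replicate block 13859 genes were called for fractions 7 and 8 against 3 and 4 in WT, 11284 in D146N and 5456 in the sums. RPLP0 in the sums was then -0.58 (adjusted p 0.460, edgeR), and no call of a stalk mRNA changed. With the sets of D146N and WT paired by replicate number, the stalk's share had an exact permutation p of 0.25. That is the smallest p that 3 pairs allow, so this paired test could not reach the threshold and nothing is read from it.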
